A study of Mus musculus with 4 samples.

Results

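The 10 genes described here carry glucose into a cell, take it to lactate and move lactate across the cell membrane. They are *Slc2a1* and *Slc2a3* (glucose transporters), *Pgk1* and *Pgk2* (phosphoglycerate kinases), *Pkm* (pyruvate kinase), *Ldha*, *Ldhb* and *Ldhc* (lactate dehydrogenase, LDH) and *Slc16a1* and *Slc16a3* (the monocarboxylate transporters MCT1 and MCT4). They were chosen for these functions, by symbol, and all 10 were found, each in 1 of the 31053 rows of the count tables. Single cells were taken at postnatal day 14 (P14) from the part of the mouse testis that holds the rete testis (RT), the collecting chamber of the testis, and the seminiferous tubules beside it. There were 2 control and 2 *Sox17*-cKO libraries, each from 3 pooled pups, so that each genotype has 2 replicates and pups cannot be told apart within a library. In the *Sox17*-cKO animals (SF1Cre:Sox17flox/flox in the sample records), Cre driven by *Nr5a1* (SF1) sequences, active in the somatic lineage of the gonad, was used to delete the floxed *Sox17* alleles. The records give the controls the SF1Cre genotype, whereas the methods describe them as Sox17flox/flox littermates. Nothing ties a library to single pups, so p-values between genotypes measure the spread between 2 pools.

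Glycolysis turns glucose into pyruvate, and LDH exchanges pyruvate and lactate. The enzyme is a tetramer of subunits encoded by *Ldha*, common in glycolytic tissues, *Ldhb*, common in tissues that oxidize lactate, and *Ldhc*, which is made in male germ cells from meiosis on. *Pgk2* is an intronless copy of *Pgk1* on an autosome that serves germ cells after the X chromosome, which carries *Pgk1*, is silenced in meiosis. Sertoli cells, which nurse the germ cells, take up glucose and release lactate, and spermatocytes and spermatids use that lactate as fuel. MCT4 is known mainly as an exporter of lactate and MCT1 as a carrier that works in either direction.

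The counts are unique molecular identifiers (UMIs), each counted for 1 captured RNA molecule at its 3' end. A level is given in CPM, the UMIs of a gene per 1000000 UMIs summed over a class in 1 library, in the order control 1, control 2, *Sox17*-cKO 1 and *Sox17*-cKO 2. Because each molecule is counted once whatever its length, levels and shares of molecules can be set side by side between genes, but genes differ in how well their 3' ends are captured. Reads of *Ldha*, *Pgk1* and *Pkm* can also fall on processed pseudogenes, *Slc16a1*, *Slc2a1*, *Slc2a3* and *Pkm* each overlap at least 1 other annotated gene on the same strand, and the 2 spliced forms of *Pkm* are not separated.

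Of 46001 barcodes, 22567 with 1000 to 4500 detected genes were kept, between 5174 and 6135 per library with 33649565 to 42011650 UMIs. *Sox17* in RT-like cells was at 356, 312, 45.5 and 34.6 CPM, lower in both *Sox17*-cKO libraries. The libraries numbered 1 and those numbered 2 stood apart: the count tables carry Cell Ranger 6.0.2 for number 1 and 6.1.2 for number 2, and germ cell markers in interstitial-like cells and Sertoli markers in germ-like cells were higher in number 1. The 10 germ cell markers used for naming summed to 480 and 518 CPM in interstitial-like cells of control 1 and *Sox17*-cKO 1, and to 137 and 279 CPM in those of control 2 and *Sox17*-cKO 2. At most 43 barcode sequences were shared by any library with another, and 45 of the retained ones occurred in more than 1 library.

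Cells were clustered without the 10 genes and the other 58 genes of the pathway, and clusters were named from marker lists. The classes were 5912 tubule Sertoli-like cells, 230 Sertoli valve (SV) Sertoli-like cells (the SV is the terminal segment of the tubule at the RT), 228 RT-like, 6802 germ-like, 7170 interstitial-like, 228 Leydig-like, 296 macrophage-like, 72 endothelial-like and 17 mesothelial-like cells, and 1612 cells led by mitochondrial transcripts that were left unnamed. In the RT-like cluster 6 markers of the RT list lay above 10 CPM and above the mean log level of all clusters. Its other markers did not pass both limits. RT-like cells carried *Pax8* at 343 CPM, *Cdh1* at 140 CPM and *Krt8* at 132 CPM (means of 4 libraries), while *Fshr* and *Amh*, defining Sertoli genes, were at 0.376 and 0 CPM. The Sertoli list as a whole was not absent from them. Per library 10 to 11 of its 12 markers were detected, and they summed to 16.4 to 20.8% of their tubule Sertoli level. Undifferentiated spermatogonia-like cells (572) were highest of the germ classes in 10 of their 10 markers, differentiating spermatogonia-like cells (3134) in 3 of 9, preleptotene-like cells (1383) in 3 of 7, leptotene/zygotene-like cells (857) in 6 of 10, and the latest germ cluster (856 cells) in 8 of the 11 pachytene markers, *Piwil1* and *Hspa2* among them. Since 3 of those 11 were higher elsewhere, it is called the latest germ cluster and not pachytene. The lists counted here are those that named the clusters, so the counts do not test the names.

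*Ldha* (chr7:46841475-46855627, plus strand) and *Ldhc* (chr7:46861203-46878142, plus strand) lie 5575 bases apart on chromosome 7 of GRCm38 (mm10), with no annotated gene wholly between them, and *Ldhb* (chr6:142490249-142507957, minus strand) lies on chromosome 6. *Pgk1* lies at chrX:106187100-106203699 (plus strand), *Pgk2* at chr17:40207015-40208640 (minus), *Pkm* at chr9:59656368-59679375 (plus), *Slc16a1* at chr3:104638668-104658462 (plus), *Slc16a3* at chr11:120948480-120960868 (plus), *Slc2a1* at chr4:119108711-119137983 (plus) and *Slc2a3* at chr6:122727809-122801640 (minus). The 250 bases before a RefSeq transcription start of each LDH gene (GRCm38.p6) are shown because these 3 genes had different patterns over the cell types. RefSeq lists 2 starts each for *Ldha* and *Ldhc*, and the one nearest to the start of a principal GENCODE transcript was taken. The *Ldha* window and the end of the *Ldhc* window lie inside the gene spans given above. Capitals mark the letters of a GC box (GGGCGG), of the CRE core bound by CREB and CREM (TGACG) and of the hypoxia response core (ACGTG), searched on both strands.
Ldha, chr7:46845554-46845803, plus strand: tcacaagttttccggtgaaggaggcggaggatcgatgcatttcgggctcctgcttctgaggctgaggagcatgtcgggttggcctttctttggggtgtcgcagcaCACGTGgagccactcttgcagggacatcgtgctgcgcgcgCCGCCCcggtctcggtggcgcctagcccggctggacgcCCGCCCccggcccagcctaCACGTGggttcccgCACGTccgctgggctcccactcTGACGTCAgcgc
Ldhb, chr6:142507958-142508207, minus strand: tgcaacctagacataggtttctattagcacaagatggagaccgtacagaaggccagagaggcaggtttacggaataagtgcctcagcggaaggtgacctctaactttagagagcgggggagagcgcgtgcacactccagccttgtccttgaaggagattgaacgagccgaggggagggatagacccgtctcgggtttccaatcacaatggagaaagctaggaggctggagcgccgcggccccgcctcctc
Ldhc, chr7:46861013-46861262, plus strand: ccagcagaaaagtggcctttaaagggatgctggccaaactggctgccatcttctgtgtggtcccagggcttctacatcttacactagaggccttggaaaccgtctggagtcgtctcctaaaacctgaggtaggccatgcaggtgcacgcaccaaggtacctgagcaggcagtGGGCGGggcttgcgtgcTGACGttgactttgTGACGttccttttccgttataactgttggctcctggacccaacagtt
The *Ldha* window held 2 GC boxes, 2 overlapping CRE cores in TGACGTCA and 5 hypoxia cores, of which 2 pairs overlap in CACGTG. The *Ldhc* window held 1 GC box and 2 CRE cores, and the *Ldhb* window none of the 3 motifs. Of 32536 RefSeq windows of this length, 33.0% held the GC box, 17.9% the CRE core and 16.7% the hypoxia core, and a match is a description of the letters only.

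The LDH subunits divided the somatic cell types. *Ldhb* was at 1753, 2604, 1908 and 2250 CPM in tubule Sertoli-like cells, the highest mean of all classes (2129 ± 379 CPM, SD, n = 4). It was at 1639, 2333, 1805 and 1961 CPM in those of the SV and at 866, 931, 993 and 1030 CPM in RT-like cells, so that no RT-like sum reached a Sertoli one. Interstitial-like cells had 291, 307, 350 and 339 CPM, Leydig-like cells 359, 478, 565 and 427 CPM. *Ldha* ran in another order. It was at 49.8, 68.7, 51.8 and 55.5 CPM in tubule Sertoli-like cells, at 140, 187, 168 and 167 CPM in interstitial-like cells and at 287, 327, 269 and 277 CPM in RT-like cells, and the levels of these 3 classes did not overlap. Pericyte-like, endothelial-like, Leydig-like and macrophage-like cells had means of 258 ± 33.7, 249 ± 67.9, 237 ± 68.7 and 228 ± 14.95 CPM (SD, n = 4).

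**Figure D1:**
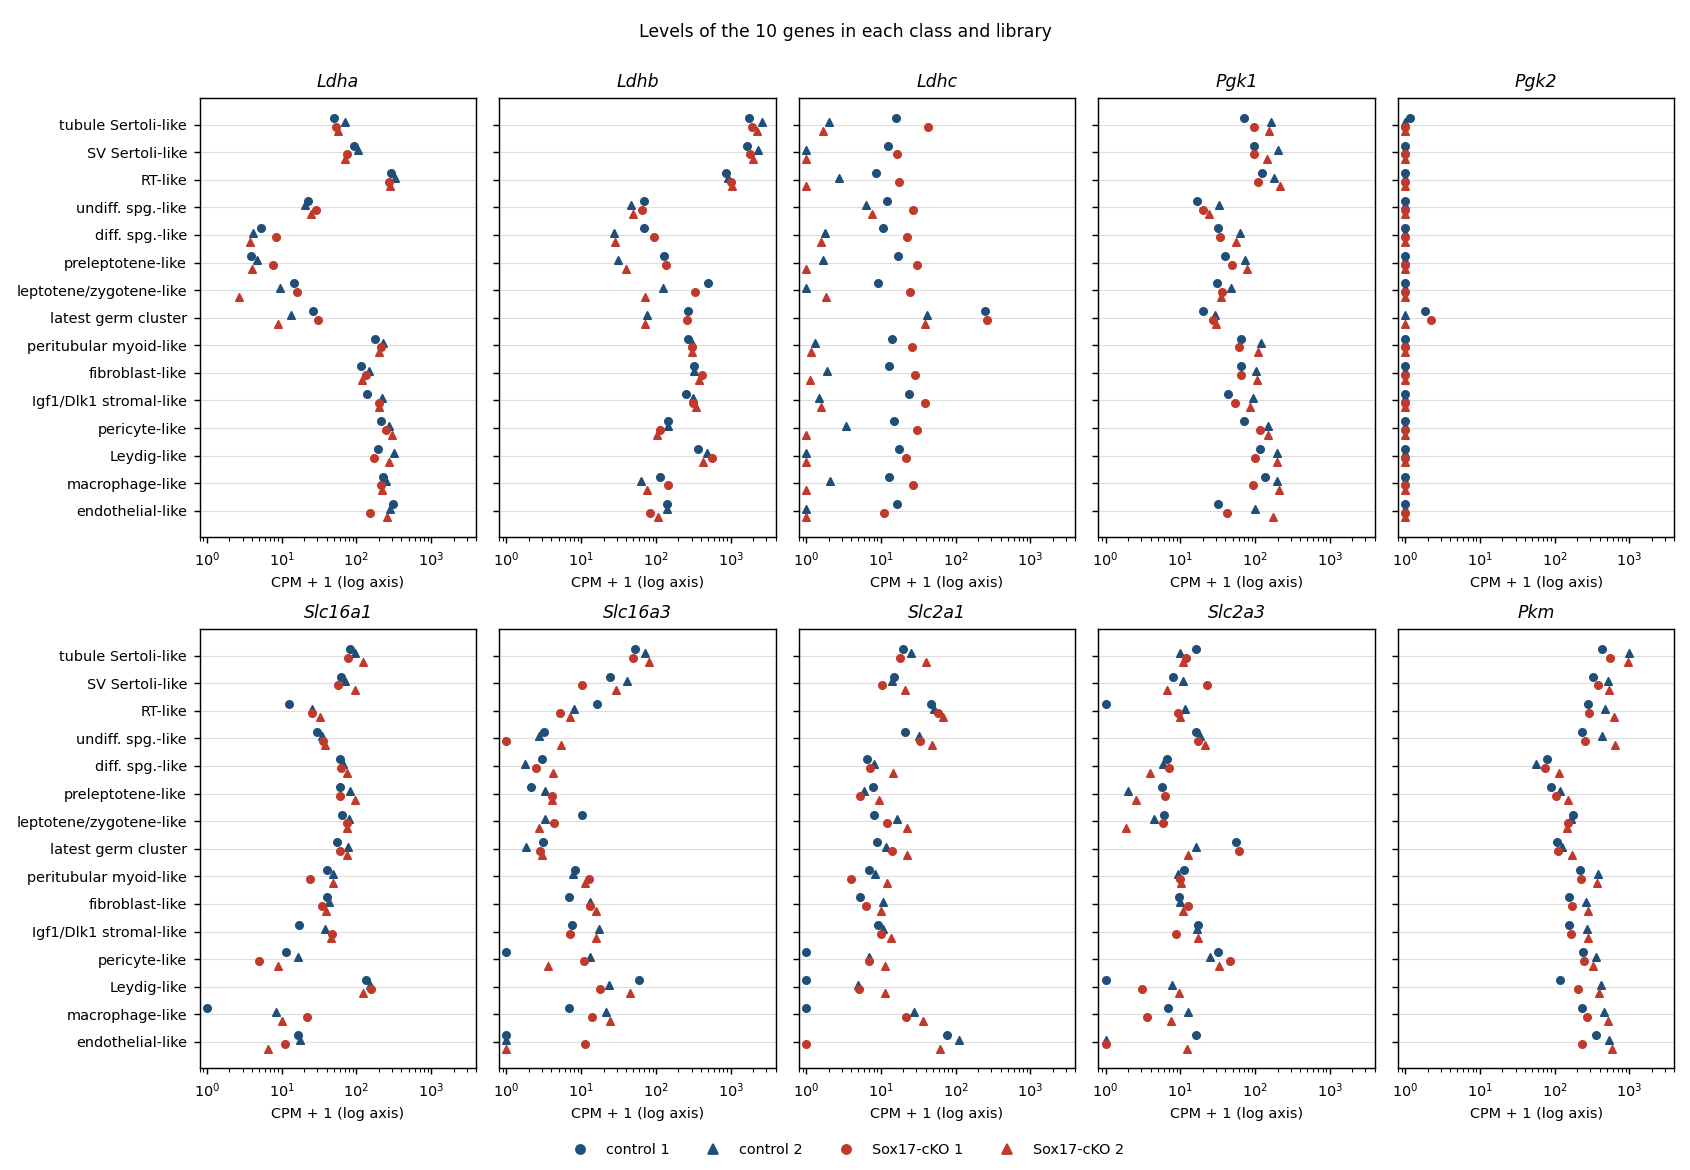
Level of each of the 10 genes (CPM + 1, log axis) in 15 classes (rows), with a point for each library (circle, number 1; triangle, number 2; blue, control; red, *Sox17*-cKO). *Ldhb* was highest in the Sertoli-like classes, *Ldha* was higher in RT-like and stromal cells than in Sertoli-like cells, and the *Ldhc* points of the number 1 libraries lay above those of number 2 in every class drawn.

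As a share of LDH molecules, *Ldhb* made up 96.7% ± 1.04 in tubule Sertoli-like, 95.4% ± 1.07 in SV Sertoli-like and 76.2% ± 2.38 in RT-like cells (SD, n = 4). *Ldha* made up 2.58% ± 0.14 in tubule Sertoli-like and 23.2% ± 2.5 in RT-like cells, and *Ldhc*, at 0.0309 to 2.12% over the libraries, 0.755% ± 0.985 in tubule Sertoli-like cells. The *Ldha* share of RT-like cells was 24.8% (exact Clopper-Pearson 95% interval 20.03 to 29.98%) in control 1, 26.0% (22.8 to 29.3%) in control 2, 21.0% (16.6 to 26.0%) in *Sox17*-cKO 1 and 21.2% (18.5 to 24.04%) in *Sox17*-cKO 2, all above the 2.41 to 2.74% of tubule Sertoli-like cells. These intervals cover counting error only. Among stromal cells the *Ldha* share was 25.8% ± 3.6 in fibroblast-like, 36.8% ± 3.5 in *Igf1*/*Dlk1* stromal-like and 40.0% ± 1.6 in peritubular myoid-like cells, named for the contractile sheath of the tubules though highest of the stromal classes in only 2 of their 7 markers (*Myh11* and *Cnn1*). It was 65.2% ± 6.7 in pericyte-like, 66.6% ± 3.2 in endothelial-like and 68.6% ± 10.5 in macrophage-like cells. In cells over 4500 genes, at 2 to 12 per library and means of 4 and of 3 libraries, *Ldha* was 39.0% of the pericyte-like and 33.5% of the macrophage-like molecules and *Ldhb* 60.4% and 64.6%. The shares are descriptions and were not tested.

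**Figure D2:**
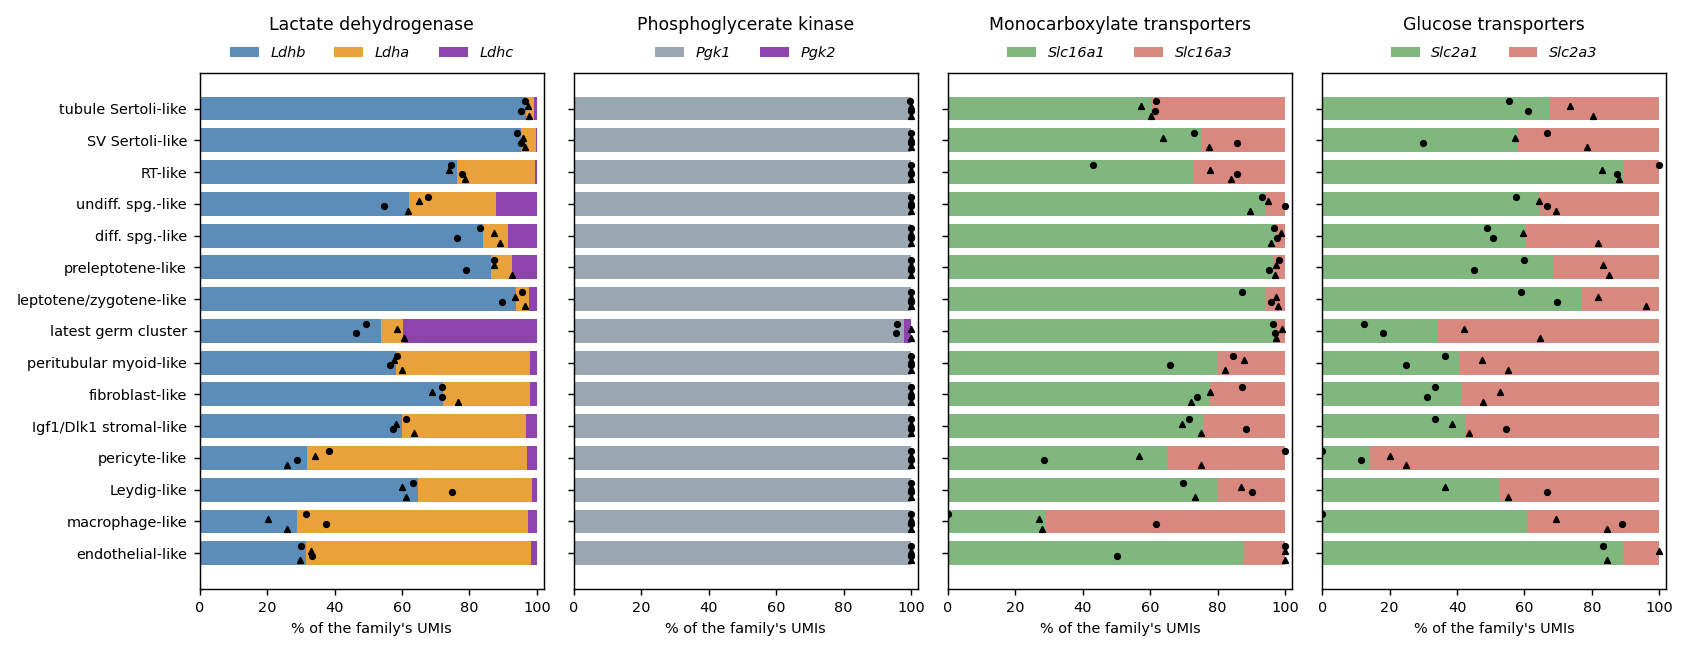
Mean share (%) of each gene among the UMIs of its family in 15 classes, as stacked bars of 4 libraries, with black points for the share of the first-named gene in each library (circle, number 1; triangle, number 2). *Ldhb* made up 96.7% of LDH molecules in tubule Sertoli-like cells and 31.8% in pericyte-like cells, and *Ldhc* made up 39.6% in the latest germ cluster.

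RT-like cells differed from tubule Sertoli-like cells in 7 of the 9 genes tested (*Pgk2* did not pass the filter on low counts), 2 higher and 5 lower, where 24.7% of all 11418 genes tested were called higher and 28.4% lower. These and all following fold changes come from edgeR's quasi-likelihood test with the library as a block and Benjamini-Hochberg adjustment over all genes, and are log2 values ± SE. *Ldha* was higher by 2.14 ± 0.14 (adjusted p = 1.2e-10) and *Ldhb* lower (-1.37 ± 0.17, adjusted p = 9.1e-07). *Slc16a3* was at 15.1, 6.93, 4.14 and 6.02 CPM in RT-like cells against 50.7, 70.1, 47.9 and 79.7 CPM in tubule Sertoli-like cells, without overlap (-3.39 ± 0.31, adjusted p = 1.8e-08), although only 13 of its UMIs fell in RT-like cells. *Slc16a1* was at 11.3, 24.2, 24.8 and 31.6 CPM against 81.9, 93.3, 75.8 and 121 CPM (-2.23 ± 0.21, adjusted p = 3.0e-08). Both lactate carriers were therefore lower in RT-like cells, while the glucose carrier *Slc2a1* was higher, with 45.4, 50.2, 57.9 and 66.2 CPM against 18.8, 24.5, 17.2 and 39.9 CPM (0.86 ± 0.22, adjusted p = 0.0022).

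*Pkm*, the last step of glycolysis, was at 276, 467, 290 and 617 CPM in RT-like and 425, 975, 548 and 945 CPM in tubule Sertoli-like cells and was lower in RT-like cells of each library (-1.03 ± 0.16, adjusted p = 1.5e-05). *Pgk1* did not pass the test (0.14 ± 0.16, adjusted p = 0.50), nor did *Slc2a3* (-0.66 ± 0.46, adjusted p = 0.24). *Ldhc*, with 7 UMIs in RT-like cells, passed it barely (-1.27 ± 0.52, adjusted p = 0.047) and did not without *Sox17*-cKO 2 (-1.21, adjusted p = 0.078). Its call was also lost with RLE size factors, DESeq2, no library block, no upper limit on genes and in the libraries numbered 1 alone. The RT-like *Ldhc* level was 50.1, 166, 39.0 and 0% of the tubule Sertoli-like one. Of the 12 Sertoli markers used for naming, 10 to 11 were detected in RT-like cells per library, and they summed to 16.4 to 20.8% of their tubule Sertoli level, where *Ldhb* stood at 35.8 to 52.0% of its own. The part of Sertoli RNA in the RT-like *Ldhb* level was not tested. Thinned to 2000 UMIs per cell, 33.3 to 45.1% of RT-like cells held an *Ldha* UMI against 8.24 to 12.3% of tubule Sertoli-like cells (66.7 to 87.3% against 21.1 to 30.4% before thinning), at median depths of 6543 to 7868 and 3194 to 5533 UMIs per cell.

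SV Sertoli-like cells lay close to the other Sertoli-like cells in *Ldhb* (-0.12 ± 0.07, adjusted p = 0.21). Of the 9 genes tested 1 was higher and 4 were lower, where 15.2% of 10593 genes were called higher and 13.8% lower. *Pkm* was at 322, 515, 382 and 527 CPM, below the tubule Sertoli-like value of the same library in all 4 (-0.67 ± 0.09, adjusted p = 1.5e-07). *Slc16a3* was at 23.0, 39.9, 9.31 and 27.8 CPM, again below the same library's tubule Sertoli-like value in all 4 (-1.32 ± 0.22, adjusted p = 5.8e-06). *Ldha* was higher (0.59 ± 0.16, adjusted p = 0.0028), though not called without control 1 or in cells under 10% mitochondrial UMIs (0.47, adjusted p = 0.072). The tubule Sertoli-like class held a cluster of 789 cells with a median of 30.5% mitochondrial UMIs, against 6.28% in SV Sertoli-like cells. *Slc2a1* (-0.79 ± 0.30, adjusted p = 0.038) and *Slc16a1* (-0.38 ± 0.15, adjusted p = 0.047) lost their calls without any 1 of the 4 libraries. The number of the 9 called fell to 2 without control 1 and to 3 without each of the others. The comparisons of RT-like, SV Sertoli-like, interstitial-like and germ-like cells share the tubule Sertoli-like sums.

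Interstitial-like cells had 1 gene higher and 6 lower than tubule Sertoli-like cells among 9 tested, where 37.7% of 13202 genes were called higher and 37.1% lower. *Ldha* was the higher one (1.69 ± 0.09, adjusted p = 4.9e-08), above the same library's tubule Sertoli-like level in all 4. *Ldhb* (-2.58 ± 0.12), *Slc16a3* (-2.45 ± 0.13), *Slc2a1* (-1.60 ± 0.13), *Pkm* (-1.39 ± 0.10), *Slc16a1* (-1.16 ± 0.09) and *Pgk1* (-0.36 ± 0.09) were lower. *Ldhb* stood at 11.8 to 18.4% of the tubule Sertoli level where the Sertoli markers stood at 6.61 to 10.8%, and the part of Sertoli RNA was not tested.

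Pericyte-like cells, the mural cells of small vessels, stood out among the stromal cells in *Slc2a3*, with 31.2, 24.1, 45.0 and 31.5 CPM, each above the other stromal classes (7.63 to 16.3 CPM), and in low *Slc16a1* (10.4, 15.7, 3.91 and 7.89 CPM, against 16.3 to 48.1 CPM in the other stromal classes). These differences were not tested. The pericyte-like class had as few as 45 cells in a library, where 1 UMI was worth up to 3.47 CPM, so the *Slc16a1* levels rest on few UMIs. Leydig-like cells, the androgen-producing cells, had 5 genes higher and 0 lower than interstitial-like cells among 9 tested, where 21.3% of 11510 genes were called higher and 24.1% lower. At an unadjusted p under 0.05 edgeR had 1 of the 9 lower, and DESeq2 called 4 higher and 0 lower. *Slc16a1* was at 133, 150, 154 and 122 CPM in Leydig-like cells against 36.4, 42.03, 30.1 and 42.03 CPM (1.89 ± 0.14, adjusted p = 8.5e-23), above its level in tubule Sertoli-like cells in every library, though by less than 1 CPM in *Sox17*-cKO 2. *Slc16a3* (1.498 ± 0.26), *Pgk1* (0.88 ± 0.14), *Ldha* (0.55 ± 0.14) and *Ldhb* (0.53 ± 0.14) were higher as well, and 12 of the 228 cells came from control 1. Without control 2 the calls fell to 3, with those of *Ldha* and *Ldhb* lost, and *Ldhb* was not called without *Sox17*-cKO 1 either (0.40, adjusted p = 0.051).

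Germ-like cells were lower than tubule Sertoli-like cells in 8 of 9 genes and higher in 0, where 38% of 13532 genes were called lower and 41.8% higher. By edgeR 1 gene was higher at an unadjusted p under 0.05, and DESeq2 called 1 higher. *Slc16a3* fell to 2.61, 1.46, 1.95 and 2.95 CPM (-5.10 ± 0.24, adjusted p = 1.4e-05), beside *Ldhb* (-5.09 ± 0.52), *Ldha* (-3.12 ± 0.32), *Pkm* (-2.78 ± 0.23) and *Pgk1* (-1.84 ± 0.10). *Slc2a3* and *Slc16a1* fell least, the first by 0.75 ± 0.24 on the log2 scale (not called without *Sox17*-cKO 2) and the other by 0.87 ± 0.10, to 54.0, 70.7, 58.9 and 74.3 CPM. *Slc16a3* made up little of the lactate carrier pair in germ-like cells, with a share of 3.41% ± 1.09 against 39.9% ± 2.1 in tubule Sertoli-like cells (SD, n = 4). The *Slc16a3* level of germ-like cells was 2.09 to 5.14% of the Sertoli level, and the Sertoli markers stood at 2.42 to 7.72%.

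*Ldhb* in germ-like cells was at 133, 47.6, 149 and 40.7 CPM, higher in the libraries numbered 1. It stood at 1.81 to 7.79% of the tubule Sertoli level, beside 2.42 to 7.72% for the Sertoli markers in the same cells, and the part of Sertoli RNA in it was not tested. The large share of *Ldhb* among the LDH molecules of germ-like cells (76.4% ± 5.4, SD, n = 4) stands beside those values. *Pkm*, in contrast, stood at 11.6 to 26.6% of its Sertoli level. *Ldhc* did not pass the test (0.86 ± 0.34, adjusted p = 0.051), with 2.08 (adjusted p = 6.4e-05) in the libraries numbered 2 alone and 0.36 (adjusted p = 0.12) in those numbered 1. In the somatic classes of at least 72 cells, *Ldhc* was at 7.56 to 22.8 CPM in control 1 and 10.2 to 42.5 CPM in *Sox17*-cKO 1, but at 0 to 2.41 CPM in the libraries numbered 2.

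**Figure D3:**
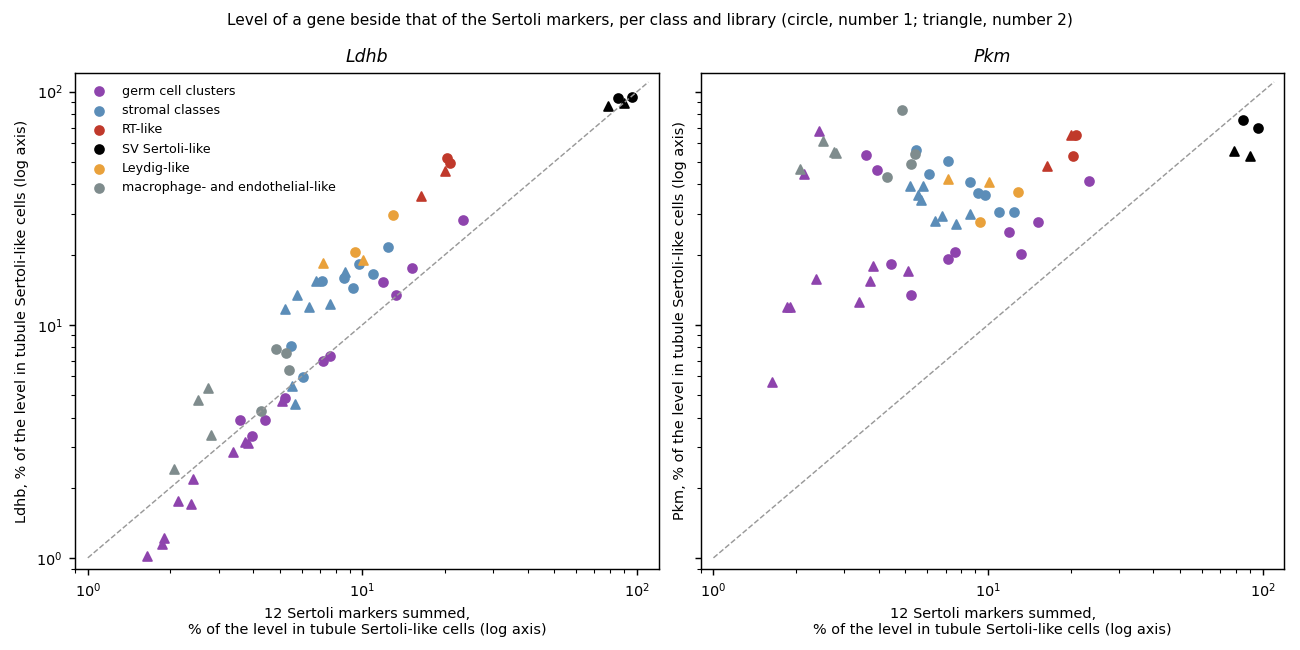
Level of *Ldhb* (left) and *Pkm* (right) against the sum of 12 Sertoli markers, both in % of the level in tubule Sertoli-like cells of the same library (log axes, a point per class and library, dashed line at equality). In the germ cell clusters *Ldhb* lay near the line, RT-like cells lay above it with 35.8 to 52.0% against 16.4 to 20.8%, and *Pkm* of germ cells lay above it.

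*Ldhc* rose in the latest germ cluster. It was at 8.27, 0, 23.5 and 0.849 CPM in leptotene/zygotene-like cells and at 248, 40.1, 265 and 38.0 CPM in the latest germ cluster, above it in every library (4.16 ± 0.26, adjusted p = 9.3e-09). The rise was 4.06 in the libraries numbered 1 alone and 6.43 in those numbered 2 alone, both called. *Ldhc* made up 45.9% (exact Clopper-Pearson 95% interval 43.1 to 48.6%) of LDH molecules there in control 1, 31.6% (24.3 to 39.6%) in control 2, 48.1% (44.9 to 51.4%) in *Sox17*-cKO 1 and 32.8% (24.4 to 41.98%) in *Sox17*-cKO 2. Both shares of number 1 were higher than both of number 2.

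*Slc2a3*, the high-affinity glucose transporter GLUT3, rose beside it, from 4.96, 3.45, 4.79 and 0.849 CPM to 55.1, 15.02, 59.8 and 11.7 CPM (3.25 ± 0.29, adjusted p = 2.6e-07). Against undifferentiated spermatogonia-like cells (15.02, 17.6, 16.1 and 20.7 CPM), however, it was higher in the latest cluster in the libraries numbered 1 alone (1.81, adjusted p = 8.1e-17) and not in those numbered 2 (-0.68, adjusted p = 0.14), beside 1.10 ± 0.36 (adjusted p = 0.012) over all 4 libraries. The pooled difference was not called without control 1 or without *Sox17*-cKO 1. Of the 8 genes tested in this step from leptotene/zygotene-like cells, 3 were higher and 3 lower, where 28.1% of 9044 genes were called higher and 31% lower. *Ldha* was the third that rose (0.90 ± 0.26, adjusted p = 0.0079), at 25.5, 12.5, 29.6 and 7.80 CPM. *Pgk1* (-0.55 ± 0.17), *Pkm* (-0.42 ± 0.13) and *Ldhb* (-0.60 ± 0.12) were lower. *Ldhb* turned to 0.42 with no integration (adjusted p = 0.0043) and to 0.41 with the members kept in clustering (adjusted p = 0.0026), so its direction in this step differed between clusterings. In the main clustering it went from 28.1, 4.71, 17.6 and 3.13% of its tubule Sertoli level to 15.25, 2.85, 13.4 and 3.12%. The Sertoli markers went from 23.3, 5.10, 15.2 and 3.72% to 11.9, 3.39, 13.2 and 3.82%, and the part of Sertoli RNA was not tested. The call of *Pgk1* was lost without control 2 and that of *Pkm* without each library but *Sox17*-cKO 2.

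*Pgk2* had 10 UMIs in all retained cells, 4 of them in the latest germ cluster, all in the libraries numbered 1. In control 2 and *Sox17*-cKO 2 0 UMIs were found there, which at 3 UMIs per library allows up to 2.50 and 2.92 CPM. The X-linked *Pgk1* was still at 19.3, 28.4, 26.6 and 29.2 CPM in that cluster.

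**Figure D4:**
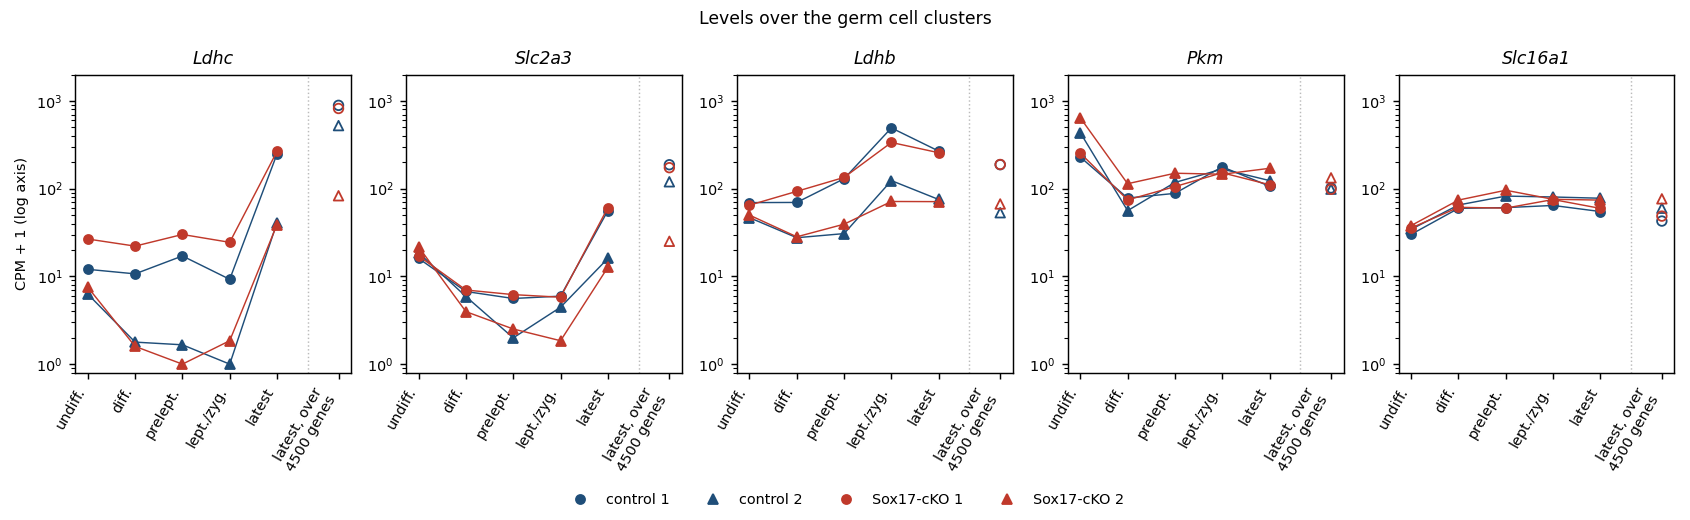
Levels (CPM + 1, log axis) of *Ldhc*, *Slc2a3*, *Ldhb*, *Pkm* and *Slc16a1* over the 5 germ cell clusters, a line per library, with open points for cells of more than 4500 detected genes in the latest cluster. *Ldhc* rose in the latest cluster in every library, *Pkm* was highest in undifferentiated spermatogonia-like cells, and *Slc16a1* stayed between 29.1 and 94.9 CPM throughout the clusters.

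The first step, from undifferentiated to differentiating spermatogonia-like cells, lowered *Pkm*, *Ldha* and both glucose transporters. Of 8 genes tested 4 were lower and 2 higher, where 31.2% of 11544 genes were called lower and 31% higher. *Pkm* fell from 228, 433, 253 and 641 CPM to 77.1, 55.2, 73.5 and 113 CPM (-2.27 ± 0.17, adjusted p = 1.3e-07). *Ldha* fell from 21.8, 19.4, 27.5 and 23.9 CPM to 4.30, 3.13, 7.35 and 2.77 CPM (-2.47 ± 0.23, adjusted p = 7.7e-07), and both sets of levels were apart in every library. *Slc2a1* (-2.14 ± 0.18) and *Slc2a3* (-1.83 ± 0.26) fell too. *Pgk1* (0.88 ± 0.14) and *Slc16a1* (0.82 ± 0.11) rose, the latter from 29.1, 33.4, 34.6 and 37.0 CPM to 58.7, 64.2, 60.3 and 73.1 CPM. *Ldhc* was at 11.04, 5.28, 25.7 and 6.53 CPM in undifferentiated spermatogonia-like cells, 12.1% ± 6.7 of their LDH molecules (SD, n = 4). That was 73.1 and 60.4% of the tubule Sertoli-like level in control 1 and *Sox17*-cKO 1, and 506 and 917% in control 2 and *Sox17*-cKO 2. The part of RNA from other cells in it was not tested. In differentiating spermatogonia-like cells *Ldhc* was at 9.69, 0.782, 21.1 and 0.593 CPM. The difference was not called by edgeR (-0.62 ± 0.32, adjusted p = 0.11) but was by DESeq2, and in the libraries numbered 2 alone it was -3.19 (adjusted p = 0.0018), from 3 to 6 UMIs per library and class.

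In preleptotene-like cells, which enter meiosis, 5 of 8 genes were higher than in differentiating spermatogonia-like cells and 0 lower, where 32.3% of 11073 genes were called higher and 33.3% lower. By edgeR 1 gene was lower at an unadjusted p under 0.05, and DESeq2 called 3 higher and 0 lower. The changes were small: *Pkm* 0.56 ± 0.10, *Ldhb* 0.60 ± 0.10, *Ldhc* 0.51 ± 0.21, *Pgk1* 0.41 ± 0.09 and *Slc16a1* 0.20 ± 0.09, and the last was not called without control 2 or without *Sox17*-cKO 2. *Ldhb* was not called in the libraries numbered 2 alone (0.33, adjusted p = 0.11). It went from 3.92, 1.02, 4.83 and 1.21% of its tubule Sertoli level to 7.35, 1.14, 6.99 and 1.71%. The Sertoli markers went from 4.43, 1.64, 5.235 and 1.90% to 7.59, 1.86, 7.16 and 2.37%, and the part of Sertoli RNA was not tested. *Ldhc* was called in the libraries numbered 1 alone (0.55, adjusted p = 0.0053) and was not tested in those numbered 2 alone. Its call was lost with DESeq2, with no library block and under 10% mitochondrial UMIs. In preleptotene-like cells *Ldhc* stood at 107, 63.4, 68.4 and 0% of its tubule Sertoli-like level. The direction of *Slc16a1* depended on the clustering, since it was called lower with no integration (-0.62, adjusted p = 9.5e-05), with no upper limit on genes per cell (-0.31, adjusted p = 0.010) and with the members kept in clustering (-0.65, adjusted p = 7.0e-05). The cluster named preleptotene was led by *Stra8* in the main clustering. It was led by *Esx1* with no integration and with the members kept, and by *Gm26917* with no upper limit. In leptotene/zygotene-like cells 4 of 7 genes were higher than in preleptotene-like cells and 1 lower, where 33% of 9374 genes were called higher and 31.1% lower. *Ldhb* rose to 492, 123, 335 and 70.4 CPM (1.68 ± 0.14, adjusted p = 4.3e-07). The Sertoli markers rose in the same cells, to 23.3, 5.10, 15.2 and 3.72% of their Sertoli level beside 28.1, 4.71, 17.6 and 3.13% for *Ldhb*, and the part of Sertoli RNA in this rise was not tested. *Ldha* (1.30 ± 0.36), *Slc2a1* (1.25 ± 0.29) and *Pkm* (0.58 ± 0.12) were higher and *Pgk1* lower (-0.58 ± 0.14). The call of *Slc2a1* was lost in the libraries numbered 1 alone and under 10% mitochondrial UMIs, and that of *Ldha* with DESeq2. That of *Pgk1* was lost with no library block, in number 1 alone and with the members kept in clustering. *Pkm* went from 20.6, 11.96, 19.1 and 15.8% of its tubule Sertoli-like level in preleptotene-like cells to 41.5, 17.05, 27.55 and 15.4%. The part of Sertoli RNA in it was not tested. With no upper limit on genes per cell *Ldha* turned to -0.075 and *Pgk1* to 0.17, neither called.

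From the first to the latest germ cluster 4 of 8 genes were higher and 2 lower, where 36.7% of 9557 genes were called higher and 37.5% lower. *Ldhc* (3.67 ± 0.25), *Ldhb* (1.43 ± 0.22), *Slc2a3* and *Slc16a1* (0.83 ± 0.16) were higher, and *Pkm* (-1.60 ± 0.15) and *Slc2a1* (-1.40 ± 0.22) lower. *Ldhb* was not called in the libraries numbered 2 alone (0.46, adjusted p = 0.077). It went from a mean of 2.80% to one of 8.66% of its tubule Sertoli level beside 3.02 and 8.09% for the Sertoli markers, and the part of Sertoli RNA was not tested. *Slc2a1* made up 64.4% ± 5.1 of the pair in undifferentiated spermatogonia-like cells and 34.3% ± 23.9 in the latest cluster (SD, n = 4). Its share there ran from 12.4% in control 1 to 64.7% in *Sox17*-cKO 2, a range that reached the mean of the first stage. Neighbouring steps share a cluster. The median log2 change of the members tested was -1.03 in RT-like cells, -0.38 in SV Sertoli-like cells, -1.84 in germ-like cells and -1.16 in interstitial-like cells against tubule Sertoli-like cells, beside -0.10, -0.04, 0.09 and -0.01 for all genes.

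The other genes of the pathway, listed for their function, moved as follows. Against tubule Sertoli-like cells, 13 of the 38 tested were higher and 13 lower in RT-like cells, beside 24.7 and 28.4% of all genes, with a median log2 change of -0.16 beside -0.10 for all genes. *Aldoc* (aldolase C, 5.37 ± 0.28), *Tpi1* (triose phosphate isomerase, 2.50 ± 0.15) and *Hk1* (hexokinase 1, 4.69 ± 0.31) were higher, and *Emb* (embigin, a partner of monocarboxylate transporters) lower (-4.70 ± 0.33). The hexokinases parted by cell type: *Hk1* was at 81.5 CPM in RT-like and 2.84 CPM in tubule Sertoli-like cells, *Hk2* at 290 CPM in tubule Sertoli-like cells and *Hk3* at 30.4 CPM in macrophage-like cells (means of 4 libraries). *Hkdc1* had means of at most 0.752 CPM in the classes of 72 or more cells.

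In SV Sertoli-like cells 5 of 34 were higher and 11 lower than in tubule Sertoli-like cells (15.2 and 13.8% of all genes; median -0.09, all genes -0.04), among them *Myc* (6.098 ± 0.40), a transcription factor that acts on glycolytic genes, *Mpc1*, a subunit of the mitochondrial pyruvate carrier (1.08 ± 0.09), *Pdk3*, a kinase that inhibits pyruvate dehydrogenase (-1.08 ± 0.14), and *Emb* (-1.28 ± 0.18). In germ-like cells 14 of 40 were higher and 21 lower (41.8 and 38% of all genes; median -0.49, all genes 0.09). *Pfkl* and *Pfkm*, subunits of phosphofructokinase, were lower (-4.62 ± 0.37 and -2.06 ± 0.14), as was *Hk2* (-3.80 ± 0.30), whereas *Mpc2*, the other subunit of the pyruvate carrier, was higher (1.44 ± 0.11). In interstitial-like cells 19 of 46 were higher and 20 lower (37.7 and 37.1% of all genes; median -0.26, all genes -0.01), with *Pfkp* (4.64 ± 0.17) and *Myc* (5.77 ± 0.20) higher and *Pdk1* (-2.52 ± 0.09) and *Emb* (-4.67 ± 0.19) lower. Leydig-like cells had 18 of 40 higher and 10 lower than interstitial-like cells (21.3 and 24.1% of all genes; median 0.24, all genes -0.03), led by *Pcx* (pyruvate carboxylase, 3.46 ± 0.26), *Aldoc* (4.12 ± 0.34), *Pgam1* (phosphoglycerate mutase, 1.60 ± 0.15) and *Ldhd* (D-lactate dehydrogenase, 3.87 ± 0.43).

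Over the germ cell steps the pathway moved in both directions. Between undifferentiated and differentiating spermatogonia-like cells 8 of 32 rose and 17 fell, beside 31 and 31.2% of all genes, with a median of -0.51 (all genes 0.01). *Pdk1* (-3.48 ± 0.18), *Eno1* (enolase, -2.12 ± 0.15) and *Pdha1* (the X-linked subunit of pyruvate dehydrogenase, -2.19 ± 0.16) fell and *Bsg* (basigin, the partner of MCT1) rose (1.07 ± 0.07). Into the preleptotene-like cells 10 of 33 rose and 17 fell (32.3 and 33.3% of all genes; median -0.22, all genes -0.01), with *Mpc1* (1.496 ± 0.06), *Hif1a* (1.20 ± 0.08) and *Bsg* (0.62 ± 0.05) up and *Pgam1* (-1.64 ± 0.08) down. Into the leptotene/zygotene-like cells 13 of 24 rose and 8 fell (33 and 31.1% of all genes; median 0.38, all genes 0.01), with *Mpc1* (0.79 ± 0.07) and *Pcx* (0.99 ± 0.12) up and *Gpi1* (-1.95 ± 0.11) and *Gapdh* (-1.25 ± 0.19) down. Into the latest cluster 4 of 24 rose and 8 fell, beside 28.1 and 31% of all genes (median -0.41, all genes -0.05). *Ldhal6b*, an LDH-like gene of the testis, rose (4.19 ± 0.35), to a mean of 47.2 CPM, and *Mpc1* (-1.17 ± 0.08), *Hif1a* (-1.19 ± 0.11) and *Pcx* (-1.83 ± 0.17) fell. From the first to the latest cluster 9 of 26 were higher and 14 lower, beside 36.7 and 37.5% of all genes (median -1.21, all genes -0.02). *Pdha2*, the autosomal copy of *Pdha1* in germ cells, was higher (2.80 ± 0.19), at 112 CPM, and *Gpi1* (-4.51 ± 0.18), *Pdk1* (-2.70 ± 0.16) and *Aldoc* (-4.38 ± 0.30) lower. The spermatid isoforms *Gapdhs* and *Aldoart1* stayed at means of at most 0.244 and 0.236 CPM in the classes of 72 or more cells, *Eno4* was highest in RT-like cells at 8.90 CPM, and the muscle isoform *Pgam2* in pericyte-like cells, where its libraries ran from 2.63 to 115 CPM.

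Over the 60 sums of 15 classes and 4 libraries, the genes whose log levels followed *Ldhc* most closely were *Fabp9* (Pearson's r = 0.89), *Pdcl2* (0.87), *Cox8c* (0.83), *Cetn1* (0.82) and *Rbakdn* (0.80). Those nearest to *Ldhb* were *Gm2a* (0.92), *Gstm2* (0.91), *Abhd4* (0.90), *Pex2* (0.89) and AC167229.1 (0.88). For *Slc2a3* the highest value was 0.60, with *Map6*. The sums share libraries and depth, so these values are descriptions, and *Pgk2* had too few UMIs to give any.

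The study compared *Sox17*-cKO with control testes. In 12 classes, edgeR made 90 tests of 9 of the 10 genes between genotypes, 2 libraries against 2 (*Pgk2* passed the filter on low counts in no class), and called 0, with 0 at an unadjusted p under 0.05 (the smallest was 0.131) and 0 called by DESeq2 (0 at an unadjusted p under 0.05). As background, 0.0882% of 6799 genes were called in RT-like cells, with 391 at an unadjusted p under 0.05 and 21 called by DESeq2, and 0% in each of the other 11 classes, with 16 to 101 genes per class at an unadjusted p under 0.05 and 0 to 1 called by DESeq2. With a term for the library number, which coincides with the Cell Ranger version, 9 of the 90 had an unadjusted p under 0.05 (the smallest was 0.000145) and 1 was called, *Ldhb* in leptotene/zygotene-like cells (-0.69, adjusted p = 0.033), where 0.588% of 9177 genes were called, beside 4.04% of 6799 in RT-like cells. In those leptotene/zygotene-like cells the Sertoli markers were at 23.3 against 15.2% (number 1) and 5.10 against 3.72% (number 2) of their Sertoli level in control against *Sox17*-cKO, and their part in that call was not tested. In RT-like cells *Ldhb* was at 866 and 931 CPM in control and 993 and 1030 CPM in *Sox17*-cKO libraries (0.13 ± 0.28), and *Ldha* at 287 and 327 CPM against 269 and 277 CPM (-0.21 ± 0.27). *Slc2a1* was at 45.4 and 50.2 against 57.9 and 66.2 CPM there (0.35 ± 0.35). *Slc16a1* was at 11.35 and 24.2 against 24.8 and 31.6 CPM (0.55 ± 0.53), from 3 to 21 UMIs per library, and none of these differences was called. In tubule Sertoli-like cells *Ldhb* (-0.22 ± 0.36), *Ldha* (-0.29 ± 0.29) and *Slc16a3* (-0.06 ± 0.35) overlapped between genotypes. Over the 90 tests the SE ran from 0.20 to 1.83. The endothelial-like class, with 8 cells in control 1, was not tested.

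**Figure D5:**
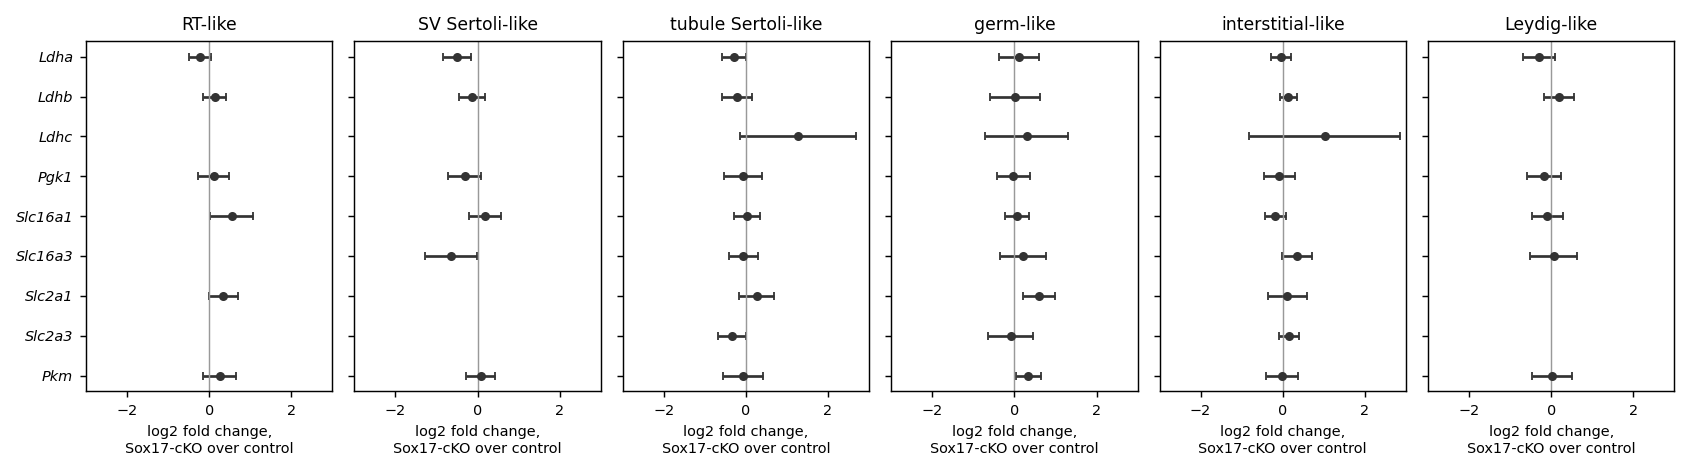
Log2 fold change of *Sox17*-cKO over control (point) with its SE (bar) for the genes that passed the filter on low counts in 6 classes. No gene was called, and the widest bars were those of *Ldhc*.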

How the data were processed

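The authors deposited UMI counts per gene and barcode, as 4 filtered matrices made with Cell Ranger (6.0.2 in the libraries numbered 1 and 6.1.2 in those numbered 2, per the file headers) on mm10 (GRCm38) from 10x Genomics 3' libraries. The submitters' processing notes also name STAR, with no version. For each library 5000 cells of 3 pooled pups were targeted. The 10 genes and all lists were chosen with earlier results of these data known.

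Cells with 1000 to 4500 detected genes were kept (22567, with 33649565 to 42011650 UMIs per library). The limit of 1% mitochondrial UMIs in the methods left 212 cells and was not applied. Scrublet (Scanpy 1.11.5) marked 8, 208, 0 and 330 cells, hardly any in the libraries numbered 1, so doublets were kept. Libraries were integrated and clustered with Seurat 5.3.0 (2000 variable genes, 20 principal components, resolution 0.4) without the 10 genes and 58 pathway genes, and clusters were named from marker lists. The SV class came from resolution 0.8 and the latest germ cluster from its pachytene score, both decided after the clusters were seen.

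UMIs were summed per class and library. Tests used edgeR 4.0.16 (quasi-likelihood, TMM, filterByExpr, two-sided, Benjamini-Hochberg 0.05 over all genes) in R 4.3.3, with the library as a block between classes and no block between genotypes, after the code had been tested on simulated data. CPM of 1 UMI was at most 4.14 in RT-like and 8.34 in Leydig-like cells. Exact intervals (95%) and the floor of 3 UMIs cover counting error only. Shares of cells with a UMI were thinned to 2000 UMIs per cell. All members are named, and of the pathway list the 4 called genes with the smallest adjusted p per comparison, beside isoforms of the pathway, except a gene that is not reported here. Alternatives were DESeq2 1.42.0, other size factors, no filter, no block or a replicate block, each library left out, other clusterings, under 10% mitochondrial UMIs and no Scrublet doublets. The libraries of 1 number alone and the cells over 4500 genes were added after the data were seen. Python 3.11.15, NumPy 2.4.6, SciPy 1.17.1 and pandas 2.3.3 were used.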

Additional observations from a re-analysis of the deposited data

Results flagged for a closer look

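Of the barcodes, 7828 had more than 4500 detected genes and were left out of the comparisons of the report, except where no upper limit on genes or cells over 4500 genes are named. Clustered with the rest, some of them fell in the latest germ cluster, and 3 values there lay above those of the retained cells, which flagged them as signal in data outside the main measurement. *Pgk2* had 35 UMIs there, a raw count. It is not scaled to the UMIs of these cells, so it cannot be set as a level beside that of the retained cells. Control 1 held 16, control 2 held 10 and *Sox17*-cKO 1 held 9 of the 35, whereas *Sox17*-cKO 2 had 0. No floor was worked out for that 0, so it does not show absence. *Ldhc* had a mean of 578.4 CPM, from 889.9 and 522.3 CPM in the control and 819.3 and 82.03 CPM in the *Sox17*-cKO libraries (numbers 1 and 2). *Slc2a3* had a mean of 125.5 CPM, from 186.4 and 118.8 CPM in the control and 172.5 and 24.13 CPM in the *Sox17*-cKO libraries. *Sox17*-cKO 2 was lowest in each. Cells with this many genes can also be doublets, and the part of doublets was not tested.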

How the results depend on the processing

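Of 940 values of the 60 member calls between classes and stages, 841 kept direction and call, 90 lost the call and 9 turned. Among isoform shares, *Ldhb* in RT-like cells was 73.6% with no upper limit on genes and 72.8% in cells over 4500 genes, *Ldha* in such cells 23.0% in interstitial-like and 39.0% in pericyte-like cells, *Slc2a1* 81.6% in RT-like cells, and *Ldhc* in the latest germ cluster 63.2% with no upper limit and 69.3% in such cells. *Slc16a3* in tubule Sertoli-like cells was 43.1% under 10% mitochondrial UMIs. Members called in SV Sertoli-like cells (5) were 3 with DESeq2, 1 with no library block, 3 and 2 in the libraries numbered 1 and 2 alone and 2 to 3 with 1 library left out. In Leydig-like cells (5) they were 1 in number 1 alone and 3 to 6 with 1 library left out. In preleptotene-like cells (5) they were 3 with DESeq2, 0 with no block and 3 under 10% mitochondrial UMIs, in leptotene/zygotene-like cells (5) 3 in number 1 alone and 3 under 10%, and in the latest cluster against these (6) 2 with no block and 3 in number 2 alone. *Slc16a1* into preleptotene-like cells turned to -0.62 with no integration, -0.31 with no upper limit and -0.65 with the members kept in clustering, where the cluster of that name was not led by *Stra8*. *Ldhb* into the latest cluster turned to 0.42, 0.053 and 0.41 under the same. With no upper limit *Pgk1* and *Ldha* into leptotene/zygotene-like cells turned to 0.17 and -0.075, and *Slc2a3* in the latest against the first cluster was -0.68 in number 2 alone. The cause was not tested. No SV cluster was found with no integration or no upper limit.

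Replicate numbers are shared by the genotypes but coincide with the Cell Ranger version, and same-numbered libraries correlated in their deviations at 0.21 to 0.68 over classes, with 2 pairs only. With the replicate block, 1 of 90 member tests between genotypes was called (*Ldhb* in leptotene/zygotene-like cells, -0.69), against 0 without it, and 275 genes of RT-like cells against 6. With 1 library left out 0 to 1 members were called (1 without control 1 and 1 without *Sox17*-cKO 2), and genotype changes ran from -2.07 to 0.65 for *Ldhb* in leptotene/zygotene-like cells, -7.13 to 4.40 and -2.13 to 2.39 for *Ldhc* in preleptotene-like and germ-like cells, and -0.54 to 0.041 and -0.51 to 0.18 for *Ldha* and *Ldhb* in tubule Sertoli-like cells. *Ldhc* in germ-like cells was -0.43 with no upper limit. All genes called fell from 6062 to 3461 in RT-like and from 5228 to 1900 in Leydig-like cells in number 1 alone, from 3078 to 1660 in SV Sertoli-like and from 7261 to 4765 in preleptotene-like cells with no block, to 2031 in SV Sertoli-like cells under 10% mitochondrial UMIs and to 4804 in preleptotene-like cells with the members kept. In RT-like cells 4 to 275 genes were called between genotypes, and up to 54 in the other classes.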

Other observations

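The 17 mesothelial-like cells, too few for a test, carried the highest *Slc16a1* level of all classes, with 520.9 and 820.0 CPM in the control and 188.9 and 436.0 CPM in the *Sox17*-cKO libraries (numbers 1 and 2), from 97 UMIs in all. Endothelial-like cells (72) had *Slc2a1* at 76.9, 111, 0 and 61.7 CPM (the 0 where 1 UMI is worth 10.2 CPM) and an *Ldha* share of 66.6% ± 3.21 (SD, n = 4), and macrophage-like cells had *Slc16a3* as 70.9% ± 25.2 of the lactate carrier pair, from 43 of 65 UMIs and 38.5 to 100% over the libraries, but as 27.98% ± 28.7 in such cells over 4500 genes (19 of 75 UMIs, 3 libraries).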
